A study of Mus musculus with 20 samples.

Results

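The genes described are 10 members of the retinoid (visual) cycle and of the retinal pigment epithelium (RPE), taken by gene symbol from the deposited expression tables: Rpe65, Lrat, Rdh5, Stra6, Best1, Ttr, Rgr, Rlbp1, Rdh12 and Rbp3. All 10 were listed among the 19368 genes of the oxygen-induced retinopathy (OIR) tables and the 19102 genes of the injection tables, and all 10 passed the filter on low values in both. Bulk RNA-Seq was carried out on mouse retinas, dissected after removal of cornea and lens, in 4 groups of 5 libraries. Both OIR groups had been kept in 75% oxygen from postnatal day (P) 7 to P12 and were collected at P17, either as Atf6+/+ or as Atf6-/- mice. Both injection groups were P30 wild-type mice given 1 μL into the vitreous of both eyes, either 10 μM Ceapin-A7, a small molecule that blocks activation of ATF6, or the saline control, and both solutions held dimethyl sulfoxide. Per the paper, the control held a higher share of dimethyl sulfoxide than the Ceapin-A7 solution. The retinas of both injection groups were taken 24 h after the injection. All mice had the C57BL/6J background. The Atf6-/- mice lack ATF6, a transcription factor of the unfolded protein response, in every cell, since exon IV of the null allele carries a premature stop codon, and no cell type was singled out. The labels do not tie a library to a litter or to 1 or more retinas, so p-values measure the spread between these libraries.

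In the visual cycle, light turns the 11-cis-retinal bound to opsin into all-trans-retinal, which photoreceptors reduce to all-trans-retinol. The RPE, the pigmented layer behind the photoreceptors, esterifies the retinol, isomerizes it and oxidizes it back to 11-cis-retinal. The RPE lies against the neural retina and is not part of it, so a retina dissected free of the eyecup carries RPE RNA only as far as RPE cells or their processes stay attached. Some steps also take place in Muller glia, the radial glia of the retina. In whole-tissue RNA, fewer RPE cells in a sample and less RNA per RPE cell cannot be told apart.

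The members were grouped by where they are made: Rpe65, Lrat, Rdh5, Stra6, Best1 and Ttr largely in the RPE, Rgr and Rlbp1 in the RPE and in Muller glia, and Rdh12 and Rbp3 in photoreceptors. Values are FPKM, fragment counts scaled to transcript length and to the mapped fragments of a library, so levels of different genes can be set side by side. By this measure the groups were far apart. Over all 20 libraries, Rpe65 ranged from 0.21 to 14.41 FPKM and Lrat from 0.04 to 1.75 FPKM, whereas Rlbp1 ranged from 121.05 to 236.22 FPKM and Rbp3 from 733.52 to 1206.31 FPKM. Rod and cone genes, which mark the labelled tissue, were abundant, with summed levels of at least 13671 FPKM for 8 rod genes. Best1, a defining gene of the RPE, never exceeded 0.45 FPKM.

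**Figure D1:**
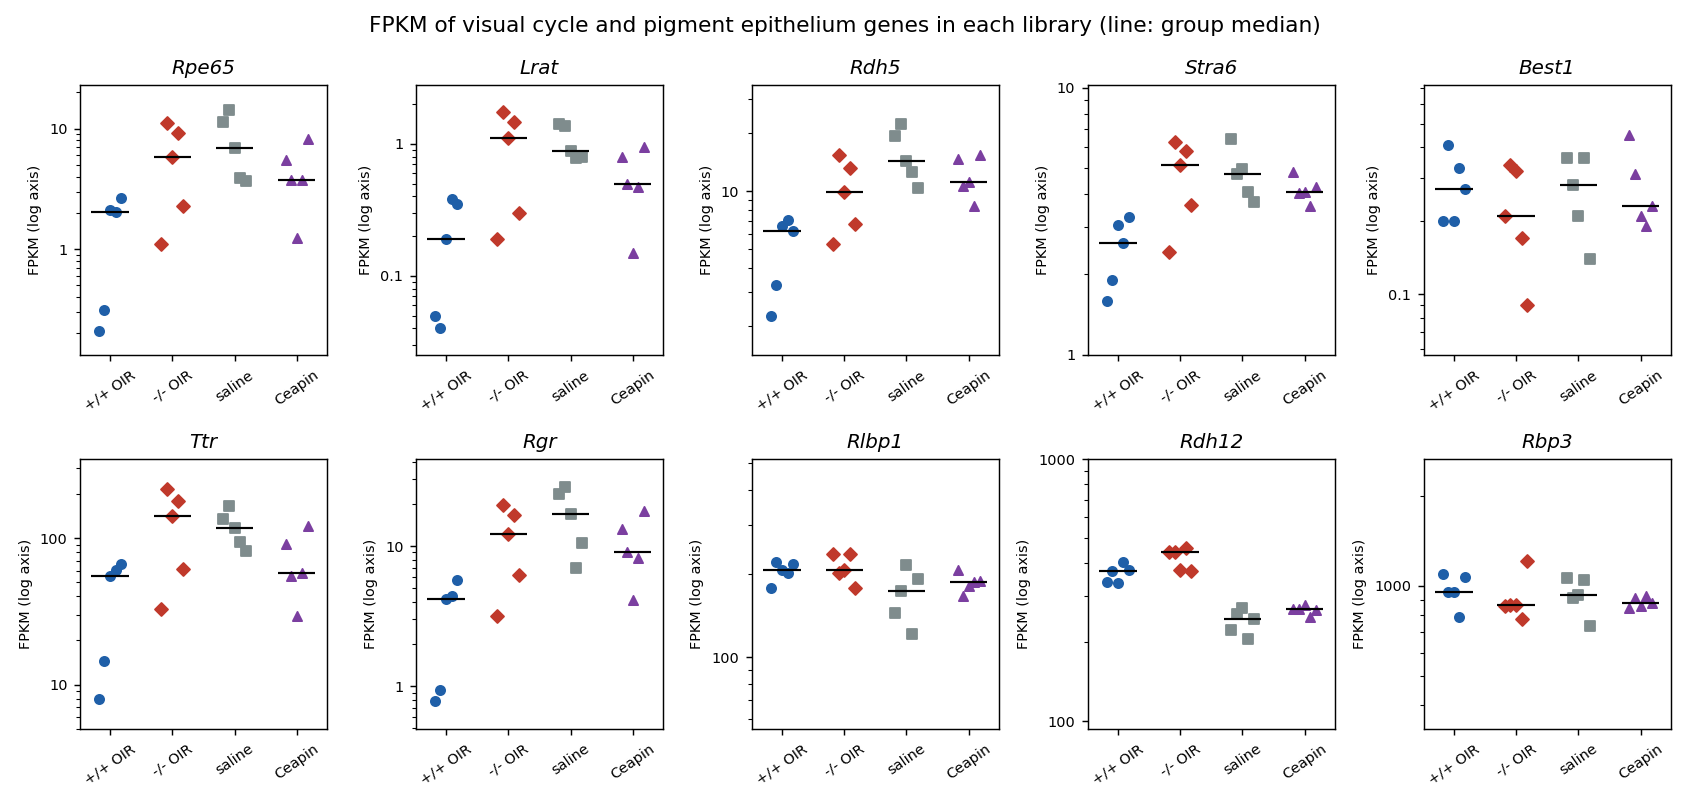
FPKM (log axis) of each gene in each of the 20 libraries, with 1 point per library and a horizontal line at the group median; +/+ OIR and -/- OIR are the Atf6+/+ and Atf6-/- mice at P17, and saline and Ceapin are the injected mice at P30. Rpe65, Lrat, Ttr and Rgr spread widely within the OIR groups (Rpe65 from 0.21 to 11.18 FPKM), while Rlbp1, Rdh12 and Rbp3 lie close together.

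FPKM summed to between 410599 and 456250 per library, which is not a depth. The values of 1 fragment, read from the lowest values of rarely detected genes, were shared by 19 libraries: in these, 12.3% to 41.2% of such values lay within 0.1 on the log2 scale of the smallest value of the same gene in another library. In Ceapin-A7 replicate 3, 0 of 78 such values did (0%), and the commonest ratio corresponded to a relative depth of 0.685. In Atf6+/+ OIR replicate 2, Atf6-/- OIR replicate 4 and saline replicate 4 the commonest ratio was that of 2 fragments, but 21.4%, 12.3% and 20.9% of their low values lay at the shared step, so they were not read as shallower. Saline replicates 4 and 5 stood apart in composition, with summed rod levels of 14588 and 13671 FPKM against 16653 to 20620 FPKM in the other 18 libraries. Atf6 itself was at 14.9 ± 0.618 FPKM in Atf6+/+ OIR and at 15.2 ± 1.52 FPKM in Atf6-/- OIR (SD, n = 5 each), so the amount of its RNA does not tell the genotypes apart.

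The first comparison asked how loss of Atf6 alters retinal expression after OIR. Of the 10 genes, 7 were higher in the Atf6-/- libraries at an unadjusted p under 0.05 from limma, and 0 were lower. Among all 15704 genes tested, 6.94% were higher and 5.81% lower at that threshold. The 7 genes were Rpe65, Lrat, Rdh5, Stra6, Ttr, Rgr and Rdh12. They are not 7 independent results, since 6 of them rose and fell together between libraries. None passed after Benjamini-Hochberg adjustment over all genes tested, where the smallest adjusted p among the 10 was 0.358 from limma and 5 genes of the whole table (0.0318%) passed. In each of the 10 genes the Atf6+/+ and Atf6-/- libraries overlapped, as they did in all but 1.52% of the genes tested.

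Rpe65 encodes the isomerohydrolase that converts retinyl esters to 11-cis-retinol. It was at 0.21, 0.31, 2.1, 2.03 and 2.68 FPKM in the Atf6+/+ OIR libraries, in replicate order, and at 1.1, 11.18, 5.84, 9.21 and 2.26 FPKM in the Atf6-/- OIR libraries. Atf6+/+ replicates 1 and 2 were far below the other Atf6+/+ libraries, and Atf6-/- replicates 2, 3 and 4 were above every Atf6+/+ library, while Atf6-/- replicates 1 and 5 lay among them. The log2 fold change was 2.03 with a 95% interval from 0.43 to 3.63 (adjusted p = 0.361 from limma, exact two-sided permutation p = 0.0635).

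Lrat encodes lecithin retinol acyltransferase, which makes the retinyl esters that RPE65 uses. Its levels were 0.05, 0.04, 0.19, 0.38 and 0.35 FPKM in the Atf6+/+ and 0.19, 1.75, 1.11, 1.46 and 0.3 FPKM in the Atf6-/- libraries, in replicate order. The same 3 Atf6-/- libraries were above the whole Atf6+/+ group. The log2 fold change was 1.67 with a 95% interval from 0.49 to 2.84 (adjusted p = 0.358 from limma, exact two-sided permutation p = 0.0635). Values this low carry 2 decimals only, and on the log2(FPKM + 0.1) scale the change of such a gene is understated.

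Rdh5 encodes the dehydrogenase that oxidizes 11-cis-retinol in the RPE. It was at 2.27, 3.27, 6.58, 7.11 and 6.19 FPKM in the Atf6+/+ libraries and at 5.31, 15.45, 9.88, 13.09 and 6.76 FPKM in the Atf6-/- libraries. The log2 fold change was 1.01 with a 95% interval from 0.27 to 1.75 (adjusted p = 0.360 from limma, exact two-sided permutation p = 0.0556). Stra6, the membrane receptor through which cells take up retinol from its plasma carrier, moved less. It was at 1.59, 1.91, 3.05, 2.63 and 3.28 FPKM in the Atf6+/+ and at 2.43, 6.29, 5.15, 5.79 and 3.63 FPKM in the Atf6-/- libraries. The log2 fold change was 0.86 with a 95% interval from 0.31 to 1.42 (adjusted p = 0.358 from limma, exact two-sided permutation p = 0.0397). For Stra6, 4 of the 5 Atf6-/- libraries lay above every Atf6+/+ library.

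Ttr encodes transthyretin, a carrier of thyroxine and of the retinol-binding protein, which the RPE secretes and which the ciliary epithelium also makes. It was the most abundant of the RPE-restricted genes, at 7.93, 14.48, 55.46, 60.89 and 67.12 FPKM in the Atf6+/+ and 32.73, 218.57, 141.92, 180.22 and 61.67 FPKM in the Atf6-/- libraries. Its log2 fold change was 1.76 with a 95% interval from 0.35 to 3.18 (adjusted p = 0.361 from limma, exact two-sided permutation p = 0.0635). Without Atf6-/- replicate 2 the value was 1.5005 and no longer had an unadjusted p under 0.05 from limma. Best1, the basolateral chloride channel bestrophin-1, ran the other way from its group, with 0.282 ± 0.0898 FPKM in Atf6+/+ and 0.226 ± 0.105 FPKM in Atf6-/- retinas (SD, n = 5 each). Its log2 fold change of -0.25 had a 95% interval from -0.79 to 0.29.

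Rgr encodes a retinal G protein-coupled receptor, an opsin of the RPE and Muller glia that binds all-trans-retinal. It followed the RPE-restricted genes, at 0.79, 0.94, 4.16, 4.41 and 5.71 FPKM in the Atf6+/+ and 3.15, 19.48, 12.13, 16.56 and 6.25 FPKM in the Atf6-/- libraries. Here 4 Atf6-/- libraries exceeded the whole Atf6+/+ group, and only Atf6-/- replicate 1 lay within it. The log2 fold change was 1.95 with a 95% interval from 0.63 to 3.26 (adjusted p = 0.358 from limma, exact two-sided permutation p = 0.0476). Rlbp1, which encodes the retinaldehyde-binding protein CRALBP of the same cell types, did not follow: it was at 204 ± 17.2 FPKM in Atf6+/+ and at 211 ± 24.97 FPKM in Atf6-/- retinas (SD, n = 5 each). Its log2 fold change was 0.06 with a 95% interval from -0.12 to 0.25.

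Among the photoreceptor genes, Rdh12, a dehydrogenase of the inner segment that reduces retinaldehydes, was at 341.12, 373.25, 336.51, 405.17 and 377.54 FPKM in the Atf6+/+ and at 441.83, 441.38, 376.99, 455.87 and 373.18 FPKM in the Atf6-/- libraries. Atf6-/- replicates 1, 2 and 4 were above every Atf6+/+ library. The change was small next to those of the RPE-restricted genes, with a log2 fold change of 0.20 and a 95% interval from 0.04 to 0.37 (adjusted p = 0.361 from limma, exact two-sided permutation p = 0.0317). Without Atf6+/+ replicate 3 it was 0.17 and no longer had an unadjusted p under 0.05 from limma, and the same held under quantile normalization, at 0.13. Rbp3, which encodes the interphotoreceptor retinoid-binding protein IRBP that carries retinoids between photoreceptors and RPE, was at 973 ± 121 and 914 ± 168 FPKM (SD, n = 5 each), and its log2 fold change was -0.08 with a 95% interval from -0.39 to 0.23. Summed rod genes moved a little beside Rdh12, from a median of 18020 FPKM in the Atf6+/+ to 19302 FPKM in the Atf6-/- libraries, and their part in its change was not tested.

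The second comparison asked how inhibition of ATF6 by Ceapin-A7 alters the P30 retina without OIR. Of the 10 genes, 2 were lower and 0 higher in the Ceapin-A7 libraries at an unadjusted p under 0.05 from limma, against 5.31% lower and 5.04% higher among the 15408 genes tested. The 2 genes were Lrat and Ttr. None of the 10 passed after adjustment (smallest adjusted p 0.472 from limma), and neither did any gene of the whole table (0%). The groups overlapped in all 10 genes, as they did in all but 1.34% of the genes tested.

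Rpe65 was at 11.39, 14.41, 6.9, 3.87 and 3.7 FPKM in saline replicates 1 to 5 and at 5.47, 3.76, 1.23, 3.75 and 8.17 FPKM in Ceapin-A7 replicates 1 to 5. Only saline replicates 1 and 2 lay above every Ceapin-A7 library, and only Ceapin-A7 replicate 3 lay below every saline library. The log2 fold change was -0.85 with a 95% interval from -1.95 to 0.24 (adjusted p = 0.537 from limma, exact two-sided permutation p = 0.214). Lrat was at 1.41, 1.37, 0.88, 0.78 and 0.79 FPKM after saline and at 0.8, 0.5, 0.15, 0.47 and 0.94 FPKM after Ceapin-A7. It had 3 Ceapin-A7 libraries below the whole saline group and a log2 fold change of -0.88 with a 95% interval from -1.65 to -0.11 (adjusted p = 0.472 from limma, exact two-sided permutation p = 0.0714).

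Ttr was at 136.29, 167.31, 117.49, 93.69 and 81.91 FPKM after saline and at 91.24, 55.26, 29.29, 57.91 and 121.19 FPKM after Ceapin-A7. Its log2 fold change was -0.86 with a 95% interval from -1.60 to -0.12 (adjusted p = 0.472 from limma, exact two-sided permutation p = 0.0794). Rgr was at 23.62, 26.28, 16.84, 7.01 and 10.44 FPKM after saline and at 13.26, 9.08, 4.13, 8.2 and 17.94 FPKM after Ceapin-A7, a log2 fold change of -0.67 with a 95% interval from -1.61 to 0.27. For both genes Ceapin-A7 replicate 3 was the lowest of the 10 libraries and saline replicate 2 the highest. Rdh5, at 15.7 ± 4.84 and 12.03 ± 2.92 FPKM (SD, n = 5 each), had a log2 fold change of -0.37 with a 95% interval from -0.85 to 0.12. Stra6, at 4.78 ± 1.04 and 4.15 ± 0.442 FPKM (SD, n = 5 each), had a log2 fold change of -0.18 with a 95% interval from -0.49 to 0.13.

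The other 4 genes had smaller changes after Ceapin-A7, and none had an unadjusted p under 0.05 from limma. Best1 was at 0.270 ± 0.0959 FPKM after saline and 0.278 ± 0.106 FPKM after Ceapin-A7 (SD, n = 5 each). Rlbp1 was at 169 ± 37.2 and 186 ± 14.4 FPKM, Rdh12 at 240 ± 25.97 and 266 ± 9.97 FPKM, and Rbp3 at 937 ± 132 and 884 ± 36.1 FPKM (SD, n = 5 each). Their log2 fold changes were 0.17 for Rlbp1, 0.15 for Rdh12 and -0.07 for Rbp3. The lowest Rdh12 and Rlbp1 values of the saline group, 205.36 and 121.05 FPKM, were in saline replicate 4, which also had a low summed rod level, and the lowest Rbp3 value, 733.52 FPKM, was in saline replicate 5, which had the lowest.

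The calls after Ceapin-A7 depended on single libraries. Without saline replicate 1, 0 of the 10 genes had an unadjusted p under 0.05 from limma. Without Ceapin-A7 replicate 2 or 3 the count was 1, Lrat. Without saline replicate 2 or Ceapin-A7 replicate 4 it was also 1, but the gene was Rdh12, at a positive log2 fold change of 0.19 and 0.18. Without saline replicate 5 it was 4, with Rdh5 and Rbp3 lower beside Lrat and Ttr. Ceapin-A7 replicate 3 had the lowest level of 4 retinoid genes and was the library that did not share the step of 1 fragment, and without it the log2 fold change of Rpe65 was -0.47, that of Rgr -0.38, that of Ttr -0.58 and that of Lrat -0.56. Leaving out both saline libraries of low rod level was an alternative chosen after seeing the data. It moved the count to 7, all lower (Rpe65, Lrat, Rdh5, Stra6, Ttr, Rgr and Rbp3), and the Rpe65 value to -1.45. The libraries left out were also the 2 saline libraries with the lowest Rpe65. None of the 7 genes passed after adjustment in this setting, with an adjusted p of 0.991 from limma for each. The share of all genes called in this setting was not counted.

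**Figure D2:**
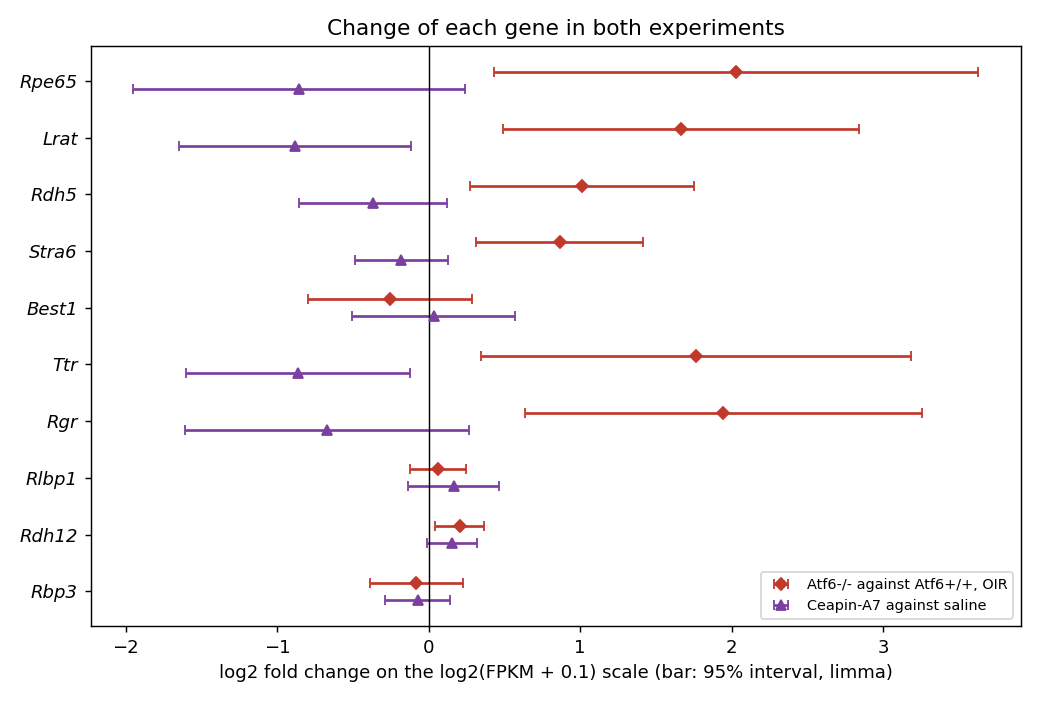
Log2 fold change of each gene on the log2(FPKM + 0.1) scale in both experiments, with 95% intervals from limma; diamonds are Atf6-/- against Atf6+/+ after OIR and triangles Ceapin-A7 against saline. For Rpe65, Lrat, Rdh5, Stra6, Ttr and Rgr the OIR intervals lie above 0 and the Ceapin-A7 estimates lie below 0 (Rpe65 2.03 and -0.85), while Best1, Rlbp1, Rdh12 and Rbp3 lie closer to 0 in both (Rlbp1 0.06 and 0.17).

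The Atf6-/- change and the Ceapin-A7 change thus had opposite signs in Rpe65, Lrat, Rdh5, Stra6, Ttr and Rgr. The difference between both changes was itself tested in a fit of all 20 libraries. It had an unadjusted p under 0.05 from limma in these 6 genes, and in each the Atf6-/- change was the more positive. Of 15628 genes tested, 5.39% passed in that direction and 3.79% in the other. The difference on the log2 scale was 2.88 for Rpe65 (95% interval 0.87 to 4.90), 2.55 for Lrat (1.10 to 3.99), 2.63 for Ttr (0.95 to 4.30), 2.62 for Rgr (0.94 to 4.30), 1.38 for Rdh5 (0.46 to 2.30) and 1.05 for Stra6 (0.40 to 1.69). After adjustment over all genes none of them passed, with adjusted p from 0.370 to 0.440 from limma, while 0.0320% of the genes did. For Rlbp1, Rdh12 and Rbp3 the differences were -0.10, 0.05 and -0.01, with 95% intervals from -0.46 to 0.26, -0.18 to 0.28 and -0.37 to 0.36. The experiments also differ in age, oxygen exposure and injection, which cannot be told apart from the genotype or inhibitor in this difference.

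Across the 4 groups, the mean level of Rpe65 ran from 1.47 ± 1.13 FPKM in Atf6+/+ OIR through 4.48 ± 2.56 after Ceapin-A7 and 5.92 ± 4.33 in Atf6-/- OIR to 8.05 ± 4.73 after saline (SD, n = 5 each). The upper 3 groups lie within their spreads of each other. Rgr had the same order of means, from 3.202 ± 2.21 through 10.5 ± 5.26 and 11.5 ± 6.84 to 16.8 ± 8.26 FPKM (SD, n = 5 each), as did Lrat, from 0.202 ± 0.161 through 0.572 ± 0.309 and 0.962 ± 0.694 to 1.05 ± 0.317 FPKM (SD, n = 5 each). In Ttr the lowest groups were again Atf6+/+ OIR at 41.2 ± 27.8 and Ceapin-A7 at 71.0 ± 35.7 FPKM (SD, n = 5 each), followed by saline at 119 ± 34.1 and Atf6-/- OIR at 127 ± 78.4 FPKM (SD, n = 5 each). For Rdh5 both injection groups stood above both OIR groups, though Ceapin-A7 at 12.03 ± 2.92 and Atf6-/- OIR at 10.1 ± 4.23 FPKM (SD, n = 5 each) overlapped. Rdh12 went against this, with every OIR library at 336.51 FPKM or more and every injection library at 276.63 FPKM or less. The experiments were deposited in separate tables of different ages, so levels between them are set side by side and not tested.

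The 6 genes varied together within groups, with lower correlations of Rdh5 and Stra6 among the injected libraries. Log2 values were centred on the mean of each group, so that no difference between groups enters, and correlated with Rpe65 over the 20 libraries. Pearson's r was 0.988 for Rgr, 0.976 for Ttr, 0.944 for Lrat, 0.912 for Rdh5 and 0.866 for Stra6. Spearman's rho was 0.988, 0.970, 0.901, 0.905 and 0.854 in the same order. Each had a permutation p of 1e-05, the smallest that 100000 resamples can give (1.8e-05 after adjustment over the 9 genes correlated with Rpe65). The resampling shuffled the centred values over all 20 libraries regardless of group, although spread differed between groups, so all permutation p of these correlations are approximate. Leaving out the 2 libraries farthest from the median of Rpe65, replicate 1 of each OIR group, gave r of 0.983, 0.974, 0.936, 0.870 and 0.803. Within the 10 OIR libraries r was 0.997 for Rgr, 0.992 for Ttr, 0.943 for Lrat, 0.98 for Rdh5 and 0.966 for Stra6. Within the 10 injected libraries it was 0.971, 0.957 and 0.946 for the first 3 of these, but 0.751 for Rdh5 and 0.592 for Stra6. The difference between the experiments was not tested. Best1 had r = 0.265 and rho = 0.268 (permutation p = 0.259 and 0.251, adjusted p = 0.388 and 0.377). Rlbp1 had r = 0.121 and rho = 0.033 (permutation p = 0.613 and 0.893, adjusted p = 0.613 and 0.893), so the gene shared with Muller glia did not track Rpe65 although Rgr did. Rdh12 had r = 0.158 and rho = 0.198 (permutation p = 0.504 and 0.403, adjusted p = 0.566 and 0.518), and Rbp3 had r = -0.195 and rho = -0.131 (permutation p = 0.414 and 0.579, adjusted p = 0.533 and 0.651). Without the same 2 libraries r was 0.233 for Best1, 0.159 for Rlbp1, 0.225 for Rdh12 and -0.156 for Rbp3. Within OIR and within the injected libraries r was 0.19 and 0.394 for Best1, 0.052 and 0.208 for Rlbp1, 0.131 and 0.206 for Rdh12, and -0.419 and 0.322 for Rbp3. In the injected libraries Best1 was no farther from Stra6 (r = 0.626) than Lrat (0.5) or Ttr (0.497) was. All genes of a library share its dissection and its scaling.

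**Figure D3:**
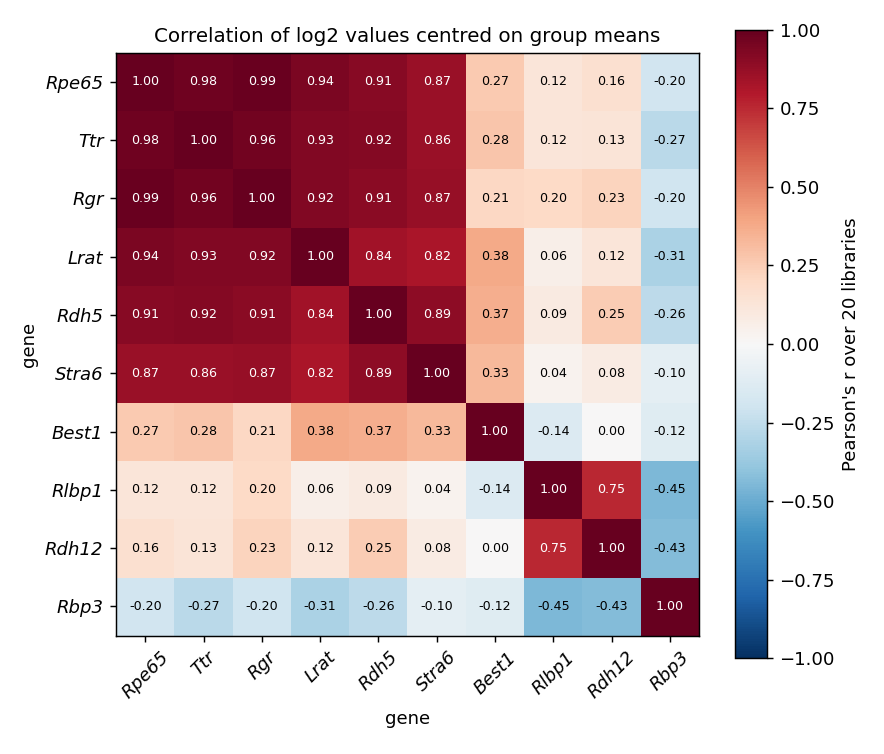
Pearson's r between each pair of genes over the 20 libraries, on log2 values centred on group means; color runs from blue at -1 to red at 1. Rpe65, Ttr, Rgr, Lrat, Rdh5 and Stra6 form a block in these pooled values (Rpe65 with Rgr 0.99), which is looser for Stra6 within the injected libraries alone (Rpe65 with Stra6 0.592).

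Since these genes moved together, the ratio of each to Rpe65 shows whether their proportions held. The ratio of Rgr to Rpe65 lay between 1.74 and 3.76 in all 20 libraries, with group medians of 2.17 (Atf6+/+ OIR), 2.08 (Atf6-/- OIR), 2.07 (saline) and 2.42 (Ceapin-A7), although Rpe65 itself varied far more. The ratio of Lrat to Rpe65 had medians of 0.131, 0.159, 0.128 and 0.125 in the same order. The ratio of Ttr to Rpe65 had higher medians at P17, 30 and 24.3 in the OIR groups against 17.03 and 15.4 in the injection groups. Single libraries overlapped, with saline replicate 4 at 24.2 and Atf6-/- OIR replicate 2 at 19.55. Rdh5 and Stra6 did not fall in proportion when Rpe65 was low. Their ratios reached 10.8 and 7.57 in the Atf6+/+ OIR libraries, against medians of 3.50 and 1.45, and in Ceapin-A7 replicate 3 they were the highest of that group, at 9.07 and 3.30. Rgr and Ttr showed this more weakly. In Atf6+/+ OIR replicate 1, with the lowest Rpe65, their ratios were 3.76 and 37.8, against medians of 2.17 and 30. In Ceapin-A7 replicate 3 they were 3.36 and 23.8, against medians of 2.42 and 15.4. Rpe65 is the divisor of every ratio, so an Rpe65 value that is low by error raises all of them. Ceapin-A7 replicate 3 was also the library with a relative depth read as 0.685. For Rlbp1 the ratio ran from 12 to 844, which is the range of Rpe65 set against a nearly constant level.

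**Figure D4:**
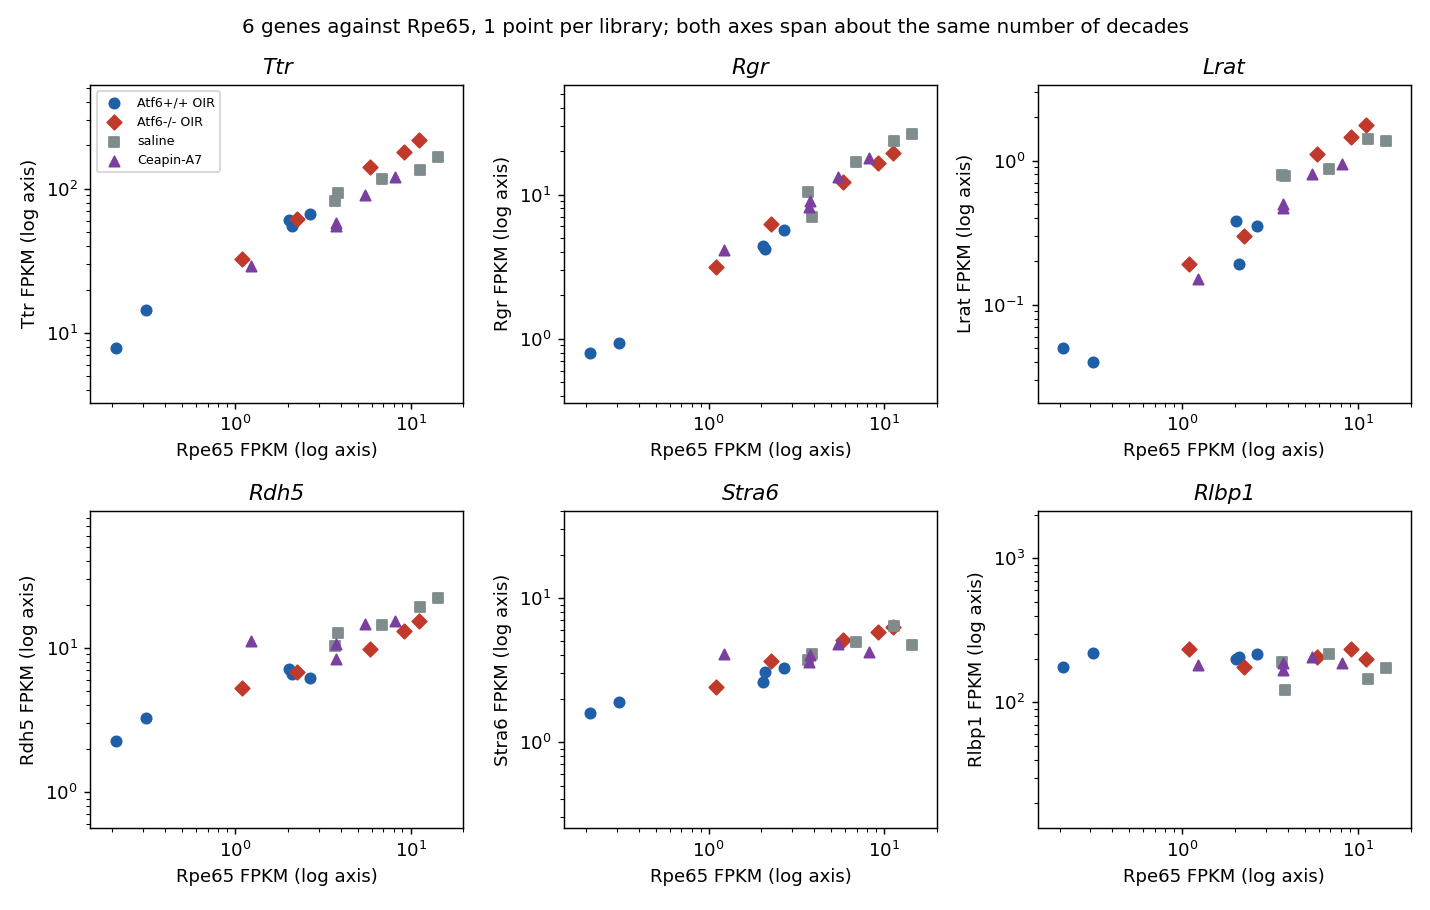
FPKM of 6 genes against that of Rpe65 (both axes log), 1 point per library, with circles for Atf6+/+ OIR, diamonds for Atf6-/- OIR, squares for saline and triangles for Ceapin-A7. Ttr, Rgr and Lrat rise with Rpe65 across all 4 groups along nearly a line, Rdh5 and Stra6 rise less steeply, and Rlbp1 stays between 121.05 and 236.22 FPKM.

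To show what lies upstream of the genes that moved together, the promoter windows of 4 of them are printed with that of Rlbp1, which did not. The windows of 300 bases lie mostly before the transcription start and reach just past it, are written 5′ to 3′ on the strand of the gene, and come from RefSeq on the assembly GRCm38.p6, a different assembly from the GRCm39 the authors aligned to. Of the 10 genes, 9 matched the table by symbol, in 12 windows, 4 of them for Stra6, and Ttr is named only. Capitals mark matches, on either strand, to the E-box CANNTG, to its form bound by MITF (CATGTG or CACGTG, which are also E-boxes) and to the OTX and CRX core TAATCC. MITF and OTX2 are transcription factors active in the RPE, and CRX is a relative of OTX2 active in photoreceptors.
Rpe65 (chr3:159598931-159599230, plus strand): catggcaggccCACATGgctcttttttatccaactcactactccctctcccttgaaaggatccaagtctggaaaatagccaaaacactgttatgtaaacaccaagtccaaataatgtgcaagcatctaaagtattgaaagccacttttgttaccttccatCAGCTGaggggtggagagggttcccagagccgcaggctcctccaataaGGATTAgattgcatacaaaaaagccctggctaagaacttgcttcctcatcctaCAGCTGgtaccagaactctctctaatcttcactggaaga
Rgr (chr14:37048965-37049264, minus strand): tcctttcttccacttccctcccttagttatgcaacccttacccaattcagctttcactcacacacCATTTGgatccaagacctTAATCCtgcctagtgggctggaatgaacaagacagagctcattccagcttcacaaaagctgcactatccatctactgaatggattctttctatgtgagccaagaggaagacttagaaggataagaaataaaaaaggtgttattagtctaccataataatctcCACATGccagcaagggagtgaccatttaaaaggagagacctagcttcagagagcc
Lrat (chr3:82903925-82904224, minus strand): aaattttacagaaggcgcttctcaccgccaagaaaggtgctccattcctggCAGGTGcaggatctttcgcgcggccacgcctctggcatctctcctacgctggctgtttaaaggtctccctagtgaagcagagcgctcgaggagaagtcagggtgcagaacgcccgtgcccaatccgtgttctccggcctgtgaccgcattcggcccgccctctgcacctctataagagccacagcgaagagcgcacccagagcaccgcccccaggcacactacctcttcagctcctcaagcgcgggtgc
Rdh5 (chr10:128919248-128919547, minus strand): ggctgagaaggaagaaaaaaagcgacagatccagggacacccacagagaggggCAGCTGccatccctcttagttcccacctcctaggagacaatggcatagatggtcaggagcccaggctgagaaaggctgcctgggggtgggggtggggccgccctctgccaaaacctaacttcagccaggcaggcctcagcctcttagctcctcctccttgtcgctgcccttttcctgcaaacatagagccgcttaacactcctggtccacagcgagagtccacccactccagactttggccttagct
Rlbp1 (chr7:79386978-79387277, minus strand): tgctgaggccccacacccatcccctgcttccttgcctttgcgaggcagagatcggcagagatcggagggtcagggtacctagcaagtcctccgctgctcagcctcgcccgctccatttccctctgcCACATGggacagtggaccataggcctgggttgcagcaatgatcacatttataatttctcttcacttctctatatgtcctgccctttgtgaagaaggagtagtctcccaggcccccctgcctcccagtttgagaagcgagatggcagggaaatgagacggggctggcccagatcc
Among 32851 windows of the same length, 72.3% held an E-box, 20.4% the MITF form and 7.06% the OTX and CRX core. Rpe65 held 3 E-boxes, 1 of them of the MITF form, and 1 OTX and CRX core, and Rgr held 2 E-boxes, 1 of them of the MITF form, and 1 core. Lrat and Rdh5 held 1 E-box each and neither of the other motifs. Rlbp1 held 1 E-box, of the MITF form. Elsewhere, the core was found in the window of Best1 and, beside 2 matches to the MITF form, in that of Rbp3, so these motifs did not divide the genes by how they moved. A match is a run of letters and not a binding site, and these data hold no binding.

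The 10 genes with no role in the choice of members whose group-centred values were most like the mean of the 6 RPE-restricted genes were sought among 12559 genes whose mean FPKM reached 1 in both experiments. The closest, over 20 libraries, were Slc16a8 (r = 0.955), the lactate transporter MCT3 of the RPE, and Slc6a20a (r = 0.926), an amino acid transporter. Col8a1, a collagen of Bruch's membrane and other basement membranes, had r = 0.879, followed by Zfp112 (0.819), Slc35b3, Lyrm2, Flvcr2, Tctex1d2, Nqo1 and Rbm34 (0.79). These are descriptions of the libraries, which share depth and dissection. Slc16a8 was at 1.38 ± 0.832 and 3.31 ± 1.75 FPKM in Atf6+/+ and Atf6-/- OIR and at 4.05 ± 1.31 and 2.74 ± 1.40 FPKM after saline and Ceapin-A7 (SD, n = 5 each), in the same order of groups as Rpe65.

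The remaining genes of the visual cycle were counted as a list of 16, among them other retinol dehydrogenases, retinol-binding proteins and opsins. After OIR, 4 of the 16 were higher and 0 lower in Atf6-/- libraries at an unadjusted p under 0.05 from limma. Among all genes tested, 6.94% were higher and 5.81% lower. The median log2 fold change was 0.08 over the list and 0.00 over all genes tested. The 4 genes were Rrh, the RPE opsin peropsin (log2 fold change 0.53), Abca4, the photoreceptor transporter that clears retinaldehyde from discs (0.21), Opn1mw (0.27) and Degs1 (0.21). After Ceapin-A7, 4 were higher and 1 lower, with a median of 0.08, against 5.04% higher and 5.31% lower among all genes tested. Degs1 was among the higher genes again, at 0.15, and none of the 16 passed after adjustment in either experiment.

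Other genes of the RPE were counted in 2 lists. In the list of 12 transport, adhesion and secretion genes, 12 had a positive log2 fold change after OIR, as did 7963 of 15704 genes tested. Of the 12, 6 were higher at an unadjusted p under 0.05 from limma, against 6.94% of all genes tested. Among them were Slc6a20a (1.51), Slc16a8 (1.24) and Kcnj13, a potassium channel of the apical membrane (1.05). Slc6a20a and Slc16a8 varied between libraries with the RPE-restricted genes, so they are not separate results. The median of the list was 0.57. After Ceapin-A7, 2 of the 12 were called lower, Slc6a20a (-1.10) and Krt18 (-0.22), against 5.31% of all genes tested. The median of the list was -0.05. Krt18 was far more abundant than Krt8 of the same list, at 33.9 against 1.11 FPKM on average after saline. Which cells Krt18 came from was not tested. Mertk, the receptor with which the RPE takes up shed outer segments and which other cells also make, had a log2 fold change of 0.16 after OIR. None of these passed after adjustment.

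The pigment genes, most of which encode enzymes and proteins of the melanosome, had log2 fold changes mostly of the same sign as the retinoid genes after OIR and of the opposite sign after Ceapin-A7. Mitf, a transcription factor of pigment cells, is also on the list. These genes mark the RPE but also the melanocytes of the choroid and iris. After Ceapin-A7 all 9 had a positive log2 fold change, with a median of 1.15, as did 7756 of 15408 genes tested. Of the 9, 4 had an unadjusted p under 0.05 from limma, against 5.04% higher among all genes tested. They were Mlana (2.13), Pmel (1.85), Dct (1.57) and Tyr (1.15), each with adjusted p from 0.472 to 0.477 from limma. Their exact two-sided permutation p were 0.0397, 0.0556, 0.0476 and 0.0873, and the groups overlapped in each. In the same libraries the median of the 6 RPE-restricted genes was -0.61. After OIR, 8 pigment genes passed the filter, 7 with a positive change, and the median was 0.56. Only Oca2 (1.03) had an unadjusted p under 0.05 from limma, against 6.94% higher among all genes tested. The median over the 6 RPE-restricted genes was 1.34 there.

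In single libraries of the injected mice, the pigment genes, which melanocytes also make, and Rpe65 lay at opposite extremes, and in others they did not. Ceapin-A7 replicate 3 had the highest summed level of the 9 pigment genes, 414 FPKM, and the lowest Rpe65 of both injection groups, 1.23 FPKM. Saline replicate 2 had the lowest pigment sum of those groups, 13.5 FPKM, and the highest Rpe65, 14.41 FPKM. Saline replicate 1 was high in both, with the highest pigment sum of its group, 118 FPKM, and Rpe65 at 11.39 FPKM. Saline replicate 5 had the lowest Rpe65 of its group, 3.7 FPKM, and a pigment sum of 32.8 FPKM. Ceapin-A7 replicate 3 also had the highest summed ciliary body and iris level of the injected mice, 61.2 FPKM. The pigment sum ranged from 13.5 to 118 FPKM after saline and from 49.5 to 414 FPKM after Ceapin-A7, and from 9.81 to 66.8 FPKM in Atf6+/+ and 16.9 to 63.2 FPKM in Atf6-/- OIR. The 6 RPE-restricted genes summed to between 101 and 210 FPKM after saline, 46.1 and 150.1 FPKM after Ceapin-A7, 12.3 and 79.9 FPKM in Atf6+/+ OIR and 42.0 and 254 FPKM in Atf6-/- OIR, and Ttr makes up most of these sums.

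**Figure D5:**
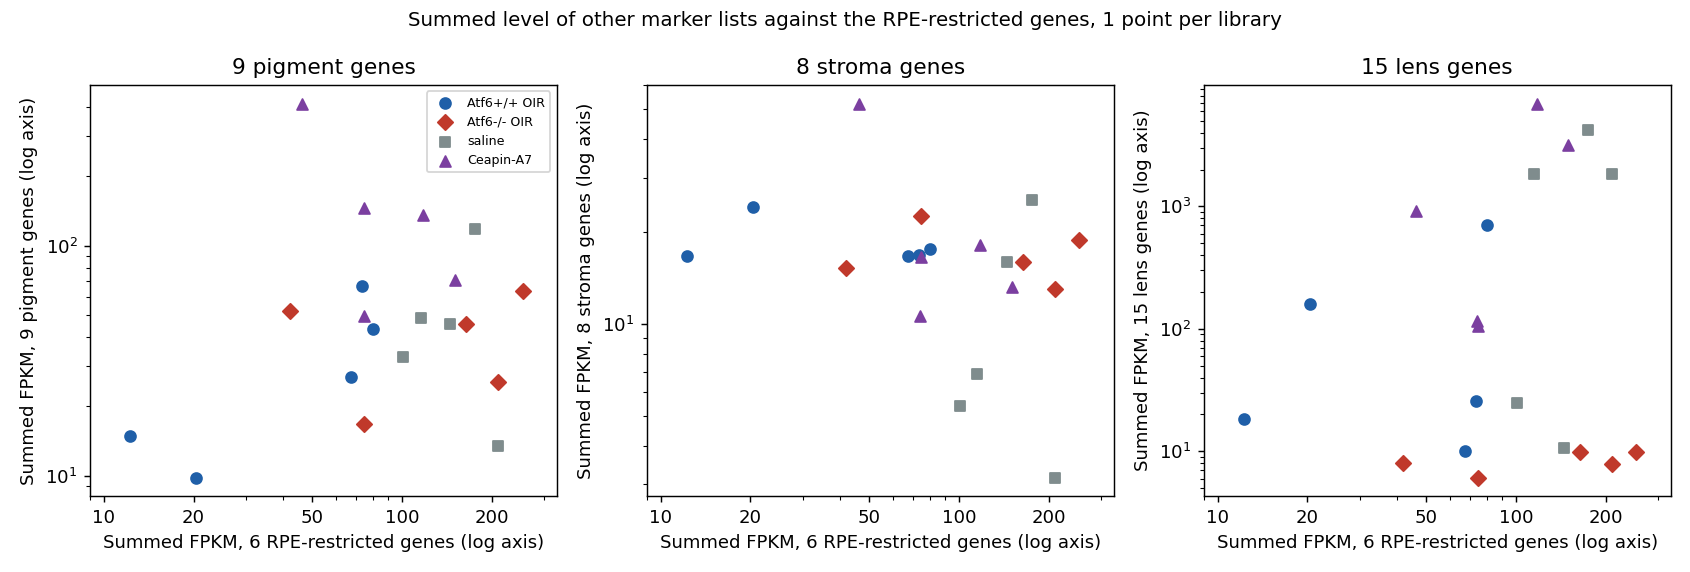
Summed FPKM of 9 pigment genes, 8 stroma genes and 15 lens genes (log axes) against the summed FPKM of the 6 RPE-restricted genes, 1 point per library, with markers by group as named in the key. Ceapin-A7 replicate 3 is the highest point of the pigment and stroma panels (414 and 52.2 FPKM), near the middle of the horizontal axis at 46.1 FPKM. The 5 Atf6-/- OIR libraries lie at or below 9.93 FPKM in the lens panel.

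Markers of tissues that border the retina differed between the groups in some lists and not in others. Over all genes tested, 6.94% were higher and 5.81% lower after OIR at an unadjusted p under 0.05 from limma. After Ceapin-A7 5.04% were higher and 5.31% lower. No stroma, ciliary body or lens gene passed after adjustment in either experiment. The 8 genes of scleral and choroidal stroma, none of which was at 0 throughout a group, summed to between 3.16 and 25.4 FPKM after saline and between 10.6 and 52.2 FPKM after Ceapin-A7, where 2 of 8 were higher at an unadjusted p under 0.05 from limma. Their highest sum was again in Ceapin-A7 replicate 3. After OIR they summed to 16.6 to 24.1 FPKM and 12.99 to 22.5 FPKM, with 1 of the 7 tested higher and 2 lower. The 4 genes of ciliary body and iris, an epithelium that also makes Ttr, summed to 36.1 to 84.3 FPKM in Atf6+/+ and 64.6 to 109 FPKM in Atf6-/- OIR, with 3 of 4 higher, and to 2.07 to 44.96 FPKM after saline and 7.50 to 61.2 FPKM after Ceapin-A7, with 0 called.

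Lens genes were called lower in 10 of 12 tested after OIR, against 5.81% of all genes tested. None passed after adjustment (smallest adjusted p 0.358 from limma). Crygb and Crygc were at 0 in all 5 Atf6-/- libraries. Cryaa, Crygd and Lim2 had means of 0.084, 0.02 and 0.012 FPKM there. These genes passed the filter only through the Atf6+/+ group, so their calls could only be lower. Lens sums were 10.1 to 703 FPKM in Atf6+/+ and 6.11 to 9.93 FPKM in Atf6-/- libraries. Atf6+/+ replicates 5 and 2 were the highest, at 703 and 159 FPKM. After the injections lens genes summed to 10.7 to 4173 FPKM and 106 to 6900 FPKM, with 0 of 15 called. Among the genes of Muller glia, 0 of 8 were called after OIR, and 2 were higher and 1 lower after Ceapin-A7. Rod genes were higher in 2 of 8 after OIR and in 1 of 8 after Ceapin-A7, and cone genes in 2 of 6 and 4 of 6, with none lower. The part of these tissues and of the dissection in the changes of the retinoid genes was not tested.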

How the data were processed

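Per the labels, the authors removed cornea and lens, made stranded mRNA libraries of the retina, used HISAT2 (v2.0.4) with GRCm39 for alignment, RSEM (v1.2.18) for expression and DESeq2 (v1.4.5) for their own tests. The deposited values are FPKM per gene, to 2 decimals, so no count model was fitted and low genes are coarse. Libraries were rescaled by median-of-ratios factors (0.946 to 1.04), and log2(FPKM + 0.1) was compared for genes averaging more than 0.1 FPKM with limma (version 3.58.1, trended eBayes) under R (version 4.3.3), with 1 fit for each experiment and a fit of 20 libraries for the difference between them. P-values were adjusted by the Benjamini-Hochberg method across every gene of a fit. The fits were tested on simulated data. Exact permutation tests used all arrangements of 5 and 5 libraries, and the smallest p they allow is 0.00794. Groups came from the labels. The members and lists were chosen with earlier results of these data known. All 10 members were described, and from each other list up to 4 genes with the smallest p or beside a member's result were named, lens genes at 0 included. The values of 1 listed gene are not reported here. Alternatives were other pseudocounts, filters, scalings and limma settings, both experiments in 1 fit, a replicate block and leaving out each library.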

Additional observations from a re-analysis of the deposited data

Results flagged for a closer look

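Rbp3 in Atf6-/- OIR replicate 5, at 1206.31 FPKM, lay far from the other 4 libraries of its group, of which the nearest was at 866.84 FPKM. The gap was 0.786 of the range of the group, above the limit for 5 values. Chance gives such a gap in about 1 of 20 groups, and 40 groups of values were examined. Without this library the log2 fold change of Rbp3 after OIR was -0.20.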

How the results depend on the processing

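After OIR, the count of 7 genes lay between 6 and 7 under every alternative, 6 to 7 with each library left out, and the 6 genes that differed between the experiments stayed at 5 to 6, and at 6 with each library left out. The number of genes in the whole table with an adjusted p under 0.05 was 9 without a filter and 11 with all 20 libraries in one fit. With array weights it was 2769 of 15704 genes tested, against 5 in the main fit. Lrat, Rdh5, Stra6 and Rgr were among these 2769 genes (adjusted p = 0.0300, 0.0400, 0.0375 and 0.0396 from limma), so their passing is not particular to them. With each library left out the number was 5 to 9. The cause was not tested. After Ceapin-A7, the count of 2 genes was 1 with a mean FPKM above 1, where Lrat is not tested, 0 with all 20 libraries in one fit, 7 without both saline libraries of low rod level, and 0 to 4 with each library left out. With all 20 libraries in one fit, 1 gene of all those tested passed. Signs turned for Rlbp1 after OIR with quantile normalization (-0.0115), and for Best1 after Ceapin-A7 with quantile normalization (-0.0066), with array weights (-0.0242), without both saline libraries of low rod level (-0.0546) and with single libraries left out (-0.12 to 0.12). Of 426 values of single genes, 390 kept their sign and their side of the threshold.

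Replicate numbers are shared between groups, but same-numbered libraries mostly did not deviate together (r from -0.258 to 0.21 after OIR and from -0.217 to 0.31 after Ceapin-A7). Each Atf6+/+ or saline library but saline replicate 1 correlated better with a library of another number in the compared group. With the replicate number as a block, 7 genes were called after OIR and 3 after Ceapin-A7 (Lrat, Ttr and Rdh12). The block lowered the unadjusted p of Rpe65 after OIR from 0.0171 to 0.00528 from limma, with an adjusted p of 0.387. Levels near 0.1 FPKM, as in Lrat and Best1, limit the precision of those genes.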
